A study of Mus musculus with 6 samples.

Results

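Memory B cell precursors are GC B cells that are about to leave the reaction and persist as resting memory cells. Such cells are known to regain surface molecules that other GC B cells have lost, to reside in the light zone and to divide little, and transcriptional repressors take part in their differentiation. The 8 genes described here were chosen by name for this role, with earlier results of these data known: the surface receptor Ccr6, the surface enzymes Cd38 and Nt5e (CD73), the transcriptional regulators Hhex, Tle3, Ski and Zeb2, and the cysteine-rich protein gene Plac8. All 8 were found among the 27179 genes counted, and 7 of the 8 were among the 11005 genes with enough reads to be tested. Zeb2 was below the expression limit of an average log2 CPM of 0, CPM being read counts scaled to a common library size.

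RNA was sequenced from splenic GC B cells of C57BL/6 background mice, either WT or Il21r-/-, on days 7, 10 and 14 after intraperitoneal NP-KLH in alum, with 1 library for each genotype and day and so 3 libraries per genotype. Il21r-/- cells lack the receptor for IL-21, and no other allele or agent differed between the groups by the labels. The methods give irradiated Ly5.1 mice carrying WT or Il21r-/- bone marrow for all experiments but a labeling time course, so radioresistant host cells may have differed from the donor genotype. The methods give age and sex matching of the mice, over a wide span of ages, and no age for a library. The sort took B220+ NP+ IgG1+ cells without CD138, IgM, IgD, Gr1 or CD38. The product of Cd38 was thus a gate marker, and its mRNA was read in cells chosen for little of the protein. The labels give 1 mouse for each library whereas the methods describe more mice per genotype than libraries, so how many mice stand behind a library is not known. With 1 library per genotype and day, p-values rest on departures of the libraries from the fitted model and not on replicates. Changes with day that a linear effect does not follow, or that differ between the genotypes, are part of these departures.

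Each library held 21353438 to 27435124 reads counted on genes. Il21r transcripts, which were still counted in the Il21r-/- libraries, were at 343, 261 and 245 CPM in WT on days 7, 10 and 14 and at 105, 127 and 112 CPM in Il21r-/-, without overlap between the genotypes. The 8 GC B cell markers summed to 3037 to 3958 CPM in WT and 2829 to 3580 CPM in Il21r-/-. Over the 3 days 0 of them were differentially expressed (DE) by edgeR's quasi-likelihood test or by DESeq2. In the quasi-likelihood fit 2 were at an unadjusted p below 0.05, against 21.4% of all genes. With day as a block in that fit 3 were DE and higher in WT and 1 in Il21r-/-, where 9.33% of all genes were DE and higher in WT and 13.6% in Il21r-/-. Here and throughout, DE means an adjusted p below 0.05 over all genes tested, and a positive log2 fold change is higher expression in WT. Markers of non-GC B cells summed to 531 to 1146 CPM in WT and 875 to 1309 CPM in Il21r-/-. Of these 5 markers 2 were DE and higher in Il21r-/- over 3 days (Fcer2a and Ccr7) and 1 in WT (Ighm). The shares of all genes in those directions were 4.52% and 1.4%. Ighd, which defines naive B cells, stayed at 0.977 to 1.66 CPM. Plasma cell markers summed to 2507 to 2723 CPM in WT and 2752 to 3594 CPM in Il21r-/-. Jchain alone was 2268 to 3289 CPM of these sums. Of the 4 plasma cell markers tested 1 was DE and higher in each genotype (Prdm1 in WT, Xbp1 in Il21r-/-), with the same shares of all genes. Markers of T cells summed to 83.6 to 122 CPM, of which Lck alone was 80.1 to 120 CPM, and Cd3e had 0 to 2 counts. Markers of plasmacytoid dendritic cells summed to 75.5 to 129 CPM, of which Tcf4 alone was 75.4 to 129 CPM. Siglech, from the same list, had 0 to 1 counts. Erythroid cell markers summed to 4.76 to 33.4 CPM and those of NK cells to 0.162 to 0.638 CPM. Those of myeloid cells summed to 8.32 to 13.9 CPM in WT and 11.5 to 18.6 CPM in Il21r-/-. Of the 3 tested Cd68 alone was DE, and higher in Il21r-/- (4.52% of all genes). The part of such cells in the results that follow was not tested, and in sorted populations more cells of a kind cannot be told apart from more RNA per cell.

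Of the 7 members tested, Ccr6 and Nt5e were DE between the genotypes over the 3 days, in opposite directions, and the sequence before the start of each is shown for that reason. Both are the 250 bases upstream of a RefSeq start on GRCm38.p6, on the plus strand: chr17:8235793-8236042 for the first of 2 listed Ccr6 starts and chr9:88327359-88327608 for Nt5e. Capitals mark matches to TTCNNNGAA, the letters of the motif that STAT factors bind, STAT3 being the main STAT factor downstream of the IL-21 receptor.
Ccr6: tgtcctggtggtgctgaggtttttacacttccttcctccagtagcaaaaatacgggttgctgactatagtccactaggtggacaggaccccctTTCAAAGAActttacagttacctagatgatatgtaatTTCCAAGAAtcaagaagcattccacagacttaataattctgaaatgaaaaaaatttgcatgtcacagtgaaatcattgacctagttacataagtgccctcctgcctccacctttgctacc
Nt5e: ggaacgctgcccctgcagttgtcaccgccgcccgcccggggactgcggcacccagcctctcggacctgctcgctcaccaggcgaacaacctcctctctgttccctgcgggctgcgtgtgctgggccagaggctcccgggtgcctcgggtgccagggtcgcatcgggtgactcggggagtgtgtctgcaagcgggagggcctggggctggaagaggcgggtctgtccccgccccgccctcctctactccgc
The Ccr6 window held 2 matches, TTCAAAGAA beginning 157 bases and TTCCAAGAA beginning 120 bases before the start, and the Nt5e window held 0. The window of the second Ccr6 start, which is not shown, also held 0. The motif, which reads the same on both strands, was searched over 300 bases, 250 before and 50 after each start. TTCNNNGAA was in 3 of the 13 RefSeq promoters of the 8 members, which is 23.1%, against 8.3% of all 32851 promoters and 6.75% of the 10781 promoters of tested genes. The other 2 of the 3 were overlapping windows of Zeb2 that share a single match, so that 2 of the 8 genes carried the motif. CACCTG, the motif of ZEB factors, was searched on both strands and was in 0 of the 13 promoters, against 20.2% of all promoters. The 250-base windows also differed in composition. They had 41.2% G+C and 1 CpG for the Ccr6 start shown, and 46% and 7 CpG for the second. Cd38 had 48.8% and 1 CpG, Nt5e 72% and 21 CpG, Hhex 76% and 32 CpG and Ski 87.6% and 53 CpG. The Tle3 window had 52.4% and 17 CpG, and those of Plac8 had 52.8% and 4 or 9 CpG. Zeb2 windows had 49.6% to 57.6% and 6 to 14 CpG. The medians of tested genes were 60% and 16 CpG. A match describes letters and not a bound site, and the lack of a match says only that the letters are not in the window.

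Per kilobase of the deposited exon length, which allows genes to be set against each other, the members were mostly weakly expressed. Plac8 had the highest mean level over the 6 libraries, 18.6 CPM per kb, followed by Nt5e at 8.46, Hhex at 6.1, Cd38 at 3.94, Ccr6 at 3.82, Tle3 at 3.57, Ski at 0.467 and Zeb2 at 0.0947 CPM per kb. The median of all tested genes was 10.2 CPM per kb, and Plac8 alone among the members had a mean above it. That mean was carried by the Il21r-/- library of day 7, at 58.6 CPM per kb, without which it was 10.6 CPM per kb. Ranges over libraries overlapped between each neighboring pair in this order from Plac8 to Tle3. Every library of Tle3 (lowest 2.6) lay above every library of Ski (0.326 to 0.673), and every library of Ski above every library of Zeb2 (0.0481 to 0.136). Variation over libraries followed another order, with the highest library 11.6 times the lowest for Cd38, 9.53 times for Plac8 and 9.46 times for Ccr6, but only 1.62 times for Tle3.

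**Figure D1:**
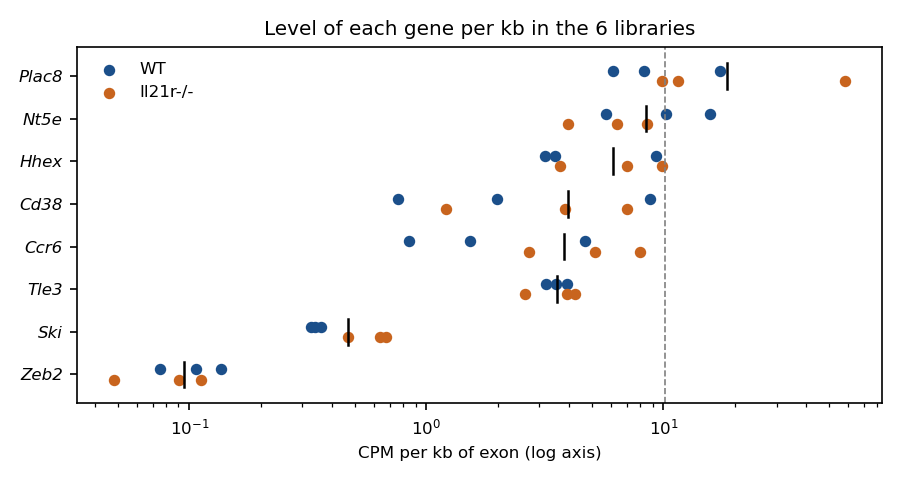
Expression of the 8 members in each library in CPM per kilobase of exon, on a log axis; points are libraries, black ticks the mean over the 6 libraries and the dashed line the median of tested genes (10.2). Plac8 had the highest mean at 18.6, or 10.6 without its highest library, and Ski (0.467) and Zeb2 (0.0947) were far below the other members.

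Ccr6 encodes the chemokine receptor for CCL20, and its surface protein is used to recognize memory B cell precursors. It lies on chromosome 17 at 8236041-8258519 of GRCm38, where its 3′ part overlaps the annotated lncRNA Gm33799, which was not among the genes counted. Expression was 9.82, 3.19 and 1.77 CPM in WT on days 7, 10 and 14 (270, 79 and 38 counts) and 16.7, 10.8 and 5.66 CPM in Il21r-/- (387, 286 and 142 counts). The Il21r-/- library was the higher on each of the 3 days, by 1.71, 3.39 and 3.2 times, although the groups overlapped across days because both fell with time. Over the 3 days Ccr6 was DE and lower in WT, with a log2 fold change of -1.33 (SE 0.23, n = 3 libraries per genotype, edgeR quasi-likelihood test adjusted p = 0.0121). Of all tested genes 5.92% were DE in this comparison, 4.52% higher in Il21r-/- and 1.4% higher in WT. By day, Ccr6 was DE on day 10 (log2 fold change -1.76, SE 0.42, edgeR likelihood ratio test adjusted p = 0.0029) and on day 14 (-1.68, SE 0.46, adjusted p = 0.0135), where 3.1% and 3.28% of all genes were DE, 2.6% and 2.55% with higher expression in Il21r-/-. On day 7 the difference was smaller, -0.77 (SE 0.40), and was not DE (edgeR likelihood ratio test adjusted p = 0.93, against 1.07% of all genes DE, 0.872% higher in Il21r-/- and 0.2% in WT). The call over 3 days was lost without the WT library of day 14 (log2 fold change -1.26, edgeR quasi-likelihood test adjusted p = 0.109), and was kept without any other single library.

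**Figure D2:**
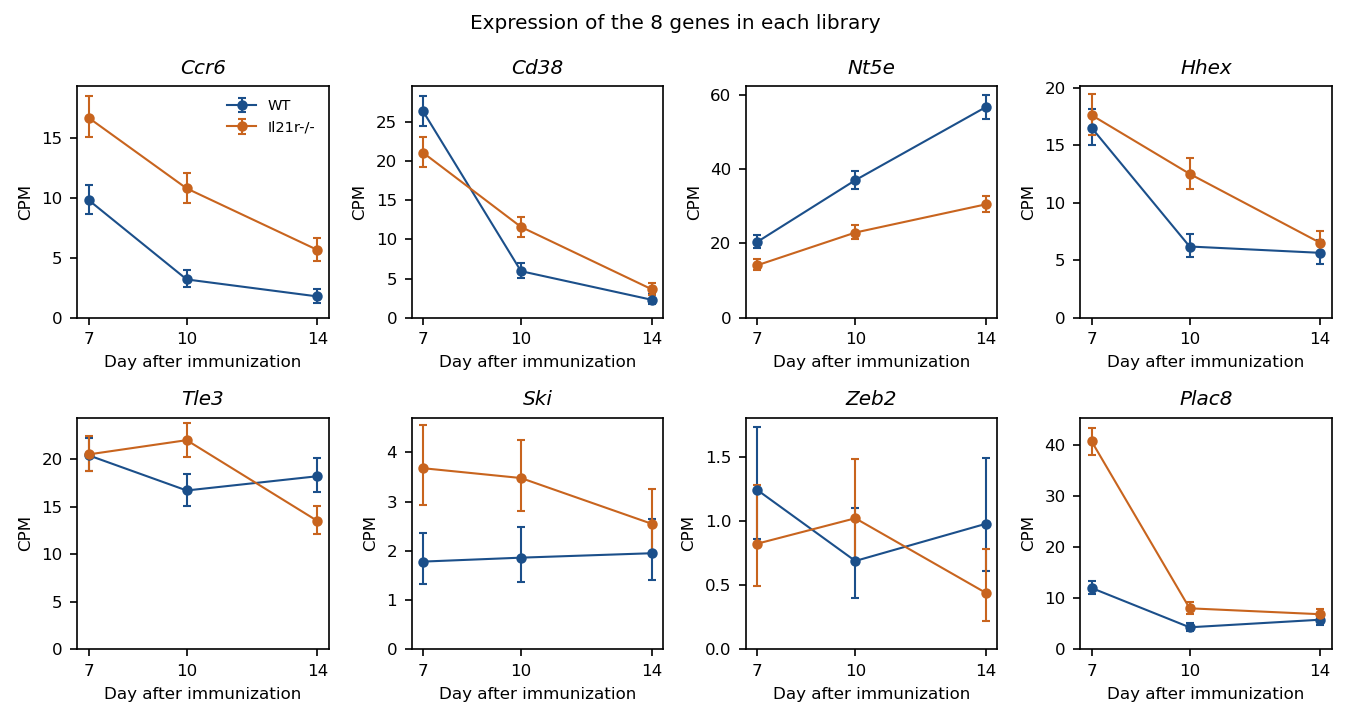
Expression of each member by day after immunization in CPM for WT and Il21r-/- libraries, with 1 library per point and bars for the exact Poisson 95% interval of the count, which covers counting error only. Ccr6 was higher in Il21r-/- and Nt5e in WT on each of the 3 days, and Plac8 in Il21r-/- on day 7 (40.8 CPM) exceeded the other 5 libraries.

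Nt5e encodes CD73, the surface enzyme that turns AMP into adenosine and is carried by many memory B cells. It lies on chromosome 9 at 88327609-88372089. Expression was 20.4, 37 and 56.7 CPM in WT on days 7, 10 and 14 and 14.1, 22.9 and 30.5 CPM in Il21r-/-. The WT library was the higher on every day, by 1.44, 1.62 and 1.86 times, and both genotypes were highest on day 14, with the groups overlapping across days. Nt5e was DE over the 3 days with a log2 fold change of 0.71 (SE 0.13, n = 3 per genotype, edgeR quasi-likelihood test adjusted p = 0.0188), the reverse of Ccr6. By day it was DE on day 14 (0.89, SE 0.26, edgeR likelihood ratio test adjusted p = 0.0261, against 0.727% of all genes DE and higher in WT), and had log2 fold changes of 0.53 on day 7 (SE 0.27, adjusted p = 0.931) and 0.69 on day 10 (SE 0.26, adjusted p = 0.175). With day as a block in the dispersion estimate, Nt5e was also DE on day 10 (SE 0.19, edgeR likelihood ratio test adjusted p = 0.00765). The blocked fit is a setting under which 822 genes were DE on that day in place of 341. Of these, 201 were higher in WT with the block and 55 (0.5% of all genes) without it. The call over 3 days was lost in 4 of the 6 fits that left out a library. These were the fits without Il21r-/- day 7 (edgeR quasi-likelihood test adjusted p = 0.0522), WT day 10 (0.0721), WT day 14 (0.166) or Il21r-/- day 14 (0.102). Over all 6 the log2 fold change stayed between 0.58 and 0.83. The call on day 14 was lost without the WT library of day 10 (edgeR likelihood ratio test adjusted p = 0.056).

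Cd38 encodes an NAD-consuming surface enzyme that naive and memory B cells carry and that GC B cells of the mouse have mostly lost. It lies on chromosome 5 at 43868809-43912374 and contains the lncRNA Gm16015, which was not among the genes counted. Expression was 26.4, 5.94 and 2.28 CPM in WT on days 7, 10 and 14 and 21.1, 11.6 and 3.63 CPM in Il21r-/-. Day 7 was highest and day 14 lowest in both genotypes, so the groups overlapped throughout, and Il21r-/- was the lower on day 7 and the higher on days 10 and 14. Cd38 was not DE between the genotypes over 3 days (log2 fold change -0.36, SE 0.24, edgeR quasi-likelihood test adjusted p = 0.448), with values of -0.80 without the WT library of day 7 and -0.15 without that of day 10. It was not DE on any day, the nearest being day 10 (-0.96, SE 0.44, edgeR likelihood ratio test adjusted p = 0.348).

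Plac8 encodes a small cysteine-rich protein and lies on chromosome 5 at 100551589-100572253. Expression was 12, 4.28 and 5.77 CPM in WT on days 7, 10 and 14 and 40.8, 8.01 and 6.85 CPM in Il21r-/-. A single library, Il21r-/- on day 7, was far above the rest, and the genotypes were close by day 14, at a ratio of 1.19 after 3.39 on day 7 and 1.87 on day 10. Over 3 days the log2 fold change was -1.06 (SE 0.43), which was not DE (edgeR quasi-likelihood test adjusted p = 0.21), and it was -0.27 without the Il21r-/- library of day 7 and -1.63 without the WT library of day 14. On day 7 itself the log2 fold change of -1.76 had an SE of 0.74 and was not DE (edgeR likelihood ratio test adjusted p = 0.6).

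Of the 3 transcriptional regulators tested, 0 were DE between the genotypes over 3 days by edgeR's quasi-likelihood test or by DESeq2. By the quasi-likelihood test 1, Ski, was at an unadjusted p below 0.05, against 21.4% of all genes. Ski encodes a corepressor that binds SMAD proteins and restrains TGF-β signaling, and lies on chromosome 4 at 155154075-155222535. Expression was 1.78, 1.86 and 1.95 CPM in WT (49, 46 and 42 counts) and 3.68, 3.48 and 2.55 CPM in Il21r-/- (85, 92 and 64 counts). Every Il21r-/- library was above every WT library, and Ski was the only member of 8 with such separation, which 9.98% of tested genes showed in this direction and 8.44% in the other. The means were 1.86 ± 0.0869 CPM in WT and 3.23 ± 0.601 CPM in Il21r-/- (SD, n = 3). The log2 fold change of -0.79 (SE 0.22) was not DE over 3 days (edgeR quasi-likelihood test adjusted p = 0.0715). With day as a block it was DE (SE 0.23, edgeR quasi-likelihood test adjusted p = 0.0115), in a fit that made 2519 genes DE in place of 651. It was DE also by edgeR's likelihood ratio test (adjusted p = 0.0132, 1193 genes DE) and not by DESeq2 (adjusted p = 0.124).

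Hhex encodes a homeodomain repressor that is needed for memory B cell formation and acts with the corepressor TLE3. The gene lies on chromosome 19 at 37434841-37440731. Its expression was 16.5, 6.18 and 5.63 CPM in WT and 17.6, 12.5 and 6.5 CPM in Il21r-/- on days 7, 10 and 14. The genotypes were nearly level on days 7 and 14, at ratios of 1.06 and 1.15, and stood apart on day 10, at 2.02. Hhex was not DE over 3 days (log2 fold change -0.40, SE 0.21, edgeR quasi-likelihood test adjusted p = 0.313), with values of -0.66 without the WT library of day 7 and -0.19 without that of day 10. On day 10 it was not DE (-1.01, SE 0.39, edgeR likelihood ratio test adjusted p = 0.178), but with day as a block it was DE on day 10 (SE 0.29, edgeR likelihood ratio test adjusted p = 0.0107). On that day 621 genes were DE and higher in Il21r-/- with the block, in place of 286.

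Tle3, on chromosome 9 at 61372326-61418497, had the most even expression of the members, at 20.4, 16.7 and 18.2 CPM in WT and 20.5, 22 and 13.5 CPM in Il21r-/-. The WT libraries lay within the range of the Il21r-/- libraries, and the log2 fold change over 3 days was -0.0012 (SE 0.16, edgeR quasi-likelihood test adjusted p = 0.997). Its sign turned from day 10 (-0.40, SE 0.31) to day 14 (0.43, SE 0.31), with neither difference DE. Zeb2, a zinc finger repressor on chromosome 2 at 44983512-45117442, was weakly expressed, at 1.24, 0.687 and 0.977 CPM in WT and 0.822, 1.02 and 0.438 CPM in Il21r-/-, or 11 to 34 counts per library. Its libraries overlapped between the genotypes, and in a fit of all genes with any count it was not DE over 3 days (log2 fold change 0.36, SE 0.37, edgeR quasi-likelihood test adjusted p = 0.71). Its antisense neighbor Zeb2os had 4 to 9 counts, and whether the counting used strand is not stated.

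**Figure D3:**
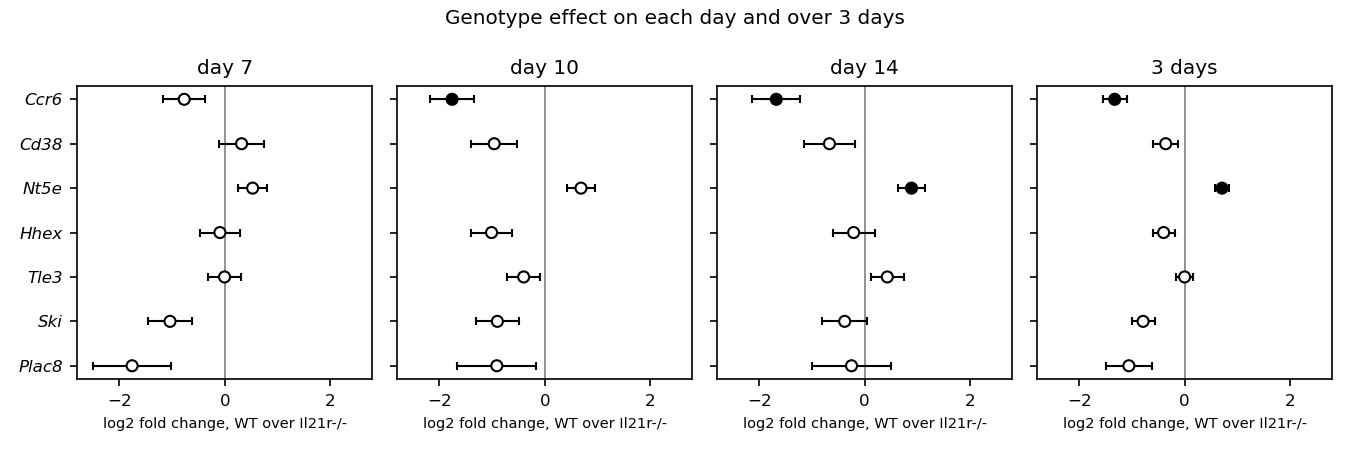
Log2 fold change of WT over Il21r-/- for each tested member over the 3 days and on each day, with bars for the SE and filled points for an adjusted p below 0.05; Zeb2 was not tested. Ccr6 (-1.33) and Nt5e (0.71) were DE over 3 days in opposite directions, and Tle3 lay at -0.0012.

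Over the 3 days 2 of the 7 tested members were DE, against 5.92% of all genes. Nt5e was higher in WT (1.4% of all genes) and Ccr6 in Il21r-/- (4.52%). The median log2 fold change of the 7 members was -0.40, where the median of all genes was -0.0097. At an unadjusted p below 0.05 there were 4 of the 7 members and 21.4% of all genes. On day 7, 0 of the 7 members were DE by edgeR's likelihood ratio test, against 1.07% of all genes, or by DESeq2. There were 2 at an unadjusted p below 0.05, against 5.51% of all genes. In simulated counts the likelihood ratio test recovered 0 of 100 genes changed on day 7 alone, at a log2 change of 1 or of 2. On day 10 the count DE was 1 (Ccr6; 3.1% of all genes), with 5 at an unadjusted p below 0.05 against 10.8%. On day 14 it was 2 (Ccr6 and Nt5e; 3.28% of all genes), with 2 at an unadjusted p below 0.05 against 12.1%. Since 7 genes are few, these counts describe the members and not a class of genes.

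Time after immunization was the second comparison. In a model with a linear effect of day common to both genotypes, 4 of the 7 were DE with time, against 4.43% of all genes, 3 falling (3.36% of all genes) and 1 rising (1.07%). Cd38 fell by 3.07 on the log2 scale over the 7 days from day 7 to day 14 (SE 0.31, edgeR quasi-likelihood test adjusted p = 0.00465), the day 7 library being 11.6 times the day 14 library in WT and 5.82 times in Il21r-/-. Ccr6 fell by 1.99 (SE 0.28, adjusted p = 0.0113), by 5.55 times in WT and 2.96 times in Il21r-/-. Hhex fell by 1.50 (SE 0.26, adjusted p = 0.0183), by 2.93 and 2.7 times, and most of that lay between days 7 and 10 in WT. Nt5e moved the other way and rose by 1.27 (SE 0.16, adjusted p = 0.00909), by 2.78 times in WT and 2.16 times in Il21r-/-. Thus the receptor Ccr6, the enzyme Cd38 and the repressor Hhex were at their lowest on day 14 in both genotypes, when Nt5e was at its highest. Plac8 was not DE with a linear trend (-1.86 over 7 days, SE 0.54, edgeR quasi-likelihood test adjusted p = 0.0747), and its day 10 and day 14 levels were close. By edgeR's likelihood ratio test the linear trend of Plac8 was DE (adjusted p = 0.00805), with 1186 genes DE in place of 488. With day as a factor, an alternative chosen after seeing the data, Plac8 was DE as well (-1.99 from day 7 to day 10, -1.89 from day 7 to day 14, edgeR quasi-likelihood test adjusted p = 0.0383), in a fit that made 36.1% of all genes DE. Tle3 (-0.37 over 7 days) and Ski (-0.23) were not DE with time. When the WT library of day 7 or of day 14 was left out, 0 of the 7 members were DE with time, in fits in which 0 and 5 genes of all were DE. The slopes per day on the log2 scale in those fits were -0.36 and -0.42 for Cd38 (-0.44 with all libraries), -0.22 and -0.27 for Ccr6 (-0.28), -0.17 and -0.25 for Hhex (-0.21) and 0.15 and 0.18 for Nt5e (0.18). The trend of Hhex was also not DE without the Il21r-/- library of day 7 (edgeR quasi-likelihood test adjusted p = 0.0746) or of day 14 (adjusted p = 0.0731).

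A difference between the genotypes in the trend with day was tested as an interaction and was found for 0 of the 7 members and 0 of all 11005 genes by edgeR's quasi-likelihood test and by DESeq2, with 0 members and 118 genes (1.07%) at an unadjusted p below 0.05. With day as a block, 31 genes including Plac8 had a different slope (0.22 per day on the log2 scale, SE 0.049, edgeR quasi-likelihood test adjusted p = 0.0054). In the fit without the block the Plac8 slope difference turned with single libraries left out, to -0.10 per day without the Il21r-/- library of day 7 and -0.13 without the WT library of day 14. It was DE without the WT library of day 7 (0.48, edgeR quasi-likelihood test adjusted p = 0.031).

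Likeness between genes was measured as the root mean square difference of log2 CPM over the 6 libraries after centering each gene, over all tested genes. The nearest genes were Pglyrp2 (0.15) and Sec16b (0.16) for Ccr6, Pxdc1 (0.28) and Rasgef1b (0.34) for Cd38, Kctd12 (0.12) and Ptger4 (0.14) for Hhex, Shisa8 (0.087) and Tiam1 (0.13) for Nt5e, and S100a6 (0.39) and Tmem154 (0.41) for Plac8. For the flatter genes they were Itga4 (0.066) and Itch (0.079) for Tle3 and Usp20 (0.10) and Bhlhe41 (0.11) for Ski. The member nearest to Cd38 was Ccr6 (0.64), which ranked 34 among all genes by nearness to it. For Plac8 it was Hhex (0.62, rank 47) and for Ccr6 also Hhex (0.55, rank 152), where the median gene lay at 1.29 from Cd38, 1.06 from Plac8 and 1.10 from Ccr6. For Hhex it was Tle3 (0.54, rank 1158), for Ski Tle3 (0.40, rank 3221), for Nt5e Tle3 (0.78, rank 8258) and for Tle3 Ski (0.40, rank 8376).

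Another 19 genes used to recognize memory B cells or their precursors were all tested. Their median log2 fold change over the 3 days was -1.06, against -0.0097 over all genes. Of them 1 was DE and higher in WT (1.4% of all genes) and 11 were DE and higher in Il21r-/- (4.52%). They included the trafficking receptors Gpr183 (-2.23, edgeR quasi-likelihood test adjusted p = 0.00101), S1pr1 (-1.31, adjusted p = 0.000784) and Ccr7 (-1.81, adjusted p = 0.00322), the last of which was also among the non-GC B cell markers above. The cytokine receptor Il9r stood at 5.56, 8.04 and 9.82 CPM in WT on days 7, 10 and 14 and at 19.5, 43.5 and 58.6 CPM in Il21r-/-, without overlap (-2.30, edgeR quasi-likelihood test adjusted p = 0.000646). The costimulatory ligand Cd80 was likewise without overlap, at 2.04, 2.99 and 3.82 CPM in WT and 6.44, 12.6 and 17.7 CPM in Il21r-/- (-2.00, adjusted p = 0.000976). Both had their highest level on day 14 in each genotype, as Nt5e had, while Ccr6 had its lowest. They were the 2 of the 19 that were DE with a rising linear trend (1.07% of all genes). Another 6 were DE with a falling trend, as Ccr6 was (3.36% of all genes): Klf2, S1pr1, Gpr183, Cd55, Vim and Cxcr3. Pdcd1lg2, which encodes PD-L2, the survival gene Bcl2, the quiescence factors Klf2 and Klf3, Cd55 and S100a10 were the remaining genes higher in Il21r-/-, with log2 fold changes of -1.02 to -1.66. The chemokine receptor Cxcr3 was the 1 gene higher in WT (1.48, edgeR quasi-likelihood test adjusted p = 0.0145). The GC and memory regulator Bach2 was not DE (0.25, adjusted p = 0.367). By day, 8, 10 and 7 of the 19 were DE and higher in Il21r-/- on days 7, 10 and 14. The shares of all genes were 0.872%, 2.6% and 2.55%. DE and higher in WT were 1, 0 and 1 of the 19, where 0.2%, 0.5% and 0.727% of all genes were. These were Cxcr3 on day 7 (1.50, edgeR likelihood ratio test adjusted p = 0.0499) and Ahnak on day 14 (2.10, adjusted p = 0.0465). Ahnak had 10 to 37 counts per library. With day as a block the counts over 3 days were 12 higher in Il21r-/- and 3 higher in WT, where 13.6% and 9.33% of all genes were. The list, like the members, was chosen with earlier results of these data known.

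**Figure D4:**
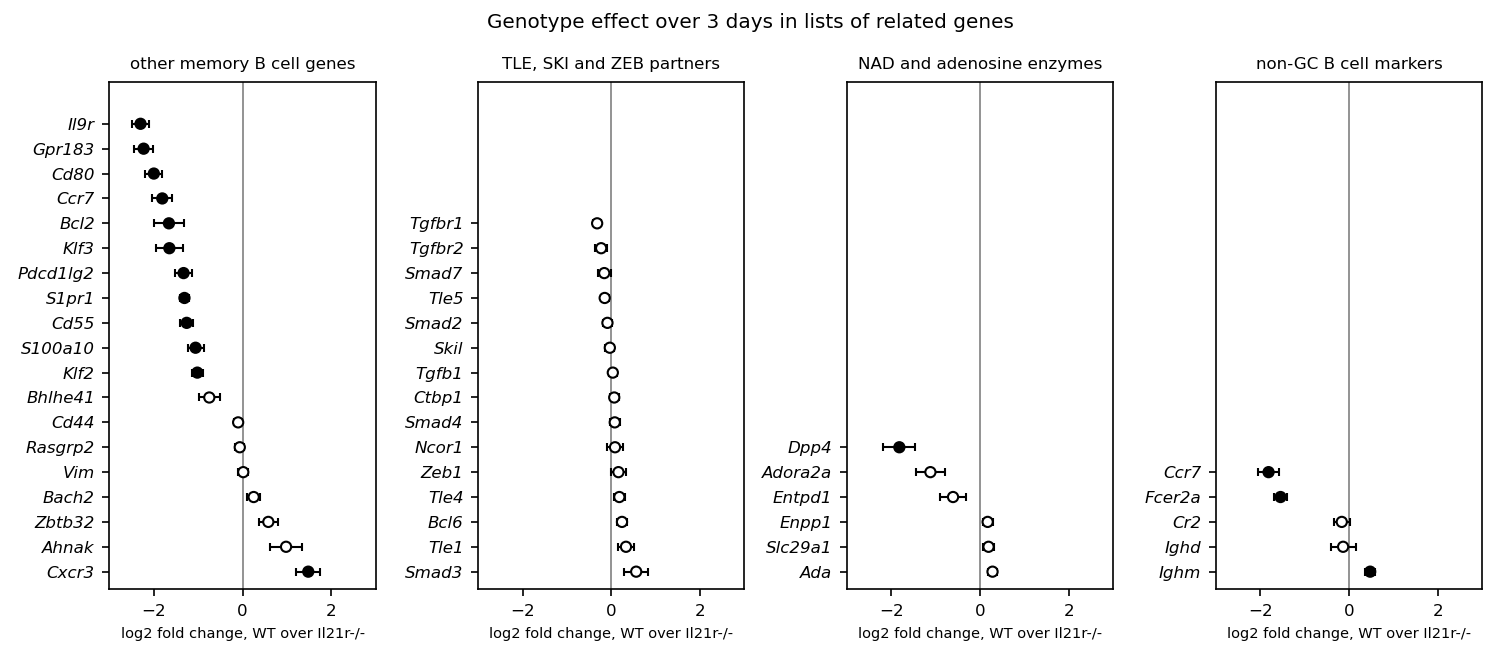
Log2 fold change of WT over Il21r-/- over the 3 days for genes of 4 lists, with bars for the SE and filled points for an adjusted p below 0.05. Of the 19 other memory B cell genes 11 lay to the left and were DE (4.52% of all genes) and 1 to the right (1.4%). The 15 tested genes related to TLE, SKI and ZEB held none.

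Another list held 18 genes related to TLE, SKI and ZEB: TLE family members, Skil, SMAD and TGF-β pathway genes, and other repressors and corepressors. Of these 15 were tested. Over 3 days 0 were DE by edgeR's quasi-likelihood test or by DESeq2, and 0 on any day by edgeR's likelihood ratio test. Over 3 days the likelihood ratio test made 1 of the 15 DE and higher in Il21r-/-. By the quasi-likelihood test 1 of the 15 was at an unadjusted p below 0.05 over 3 days (21.4% of all genes), and the median log2 fold change was 0.065. Their log2 fold changes over 3 days ran from -0.32 for Tgfbr1 to 0.56 for Smad3, and with day as a block 1 was DE in each direction (9.33% of all genes in WT, 13.6% in Il21r-/-). Without the Il21r-/- library of day 10, 4 were DE and higher in WT and 1 in Il21r-/-, in a fit that made 8.47% and 10.6% of all genes DE in those directions. Among 10 listed genes around the surface members, Ccl20, the ligand of CCR6, had 0 counts in all 6 libraries. Of the 6 tested 1 was DE, Dpp4, which encodes a surface peptidase (-1.82, edgeR quasi-likelihood test adjusted p = 0.0228). Of all genes 4.52% were DE in that direction. Without the WT library of day 14 the list held 0 DE, in a fit that made 1.24% of all genes DE. Ada, which removes the adenosine that CD73 makes, was at 276, 300 and 308 CPM in WT and 244, 232 and 250 CPM in Il21r-/-, above in every WT library but not DE (0.28, SE 0.091, adjusted p = 0.117 in edgeR's quasi-likelihood test). Entpd1 (CD39), which makes the AMP that CD73 consumes, was at 0.558 to 1.9 CPM and not DE (-0.61, edgeR quasi-likelihood test adjusted p = 0.275).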

How the data were processed

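The deposited files held whole-number read counts per gene, which the authors made by aligning 100-base single-end reads to mm10 with Rsubread and counting them with featureCounts and its inbuilt RefSeq annotation, pooling technical replicates. The deposited gene length was used for levels per kb. Strand settings are not given in the sources used here. Per the submitters' processing notes, base calls came from CASAVA 1.8.2. The table of all libraries and the single files were identical. Symbols came from RefSeq (25275 identifiers) and GENCODE (18), and 1886 had none.

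Analysis used R 4.3.3, edgeR 4.0.16, limma 3.58.1 and DESeq2 1.42.0. Genes averaging below 0 log2 CPM were dropped, as were Ig variable genes, Xist and genes of the Y chromosome. TMM factors (0.958 to 1.04) were computed, and dispersions were estimated robustly on genotype and a linear effect of day (common dispersion 0.017). Effects over 3 days, trends and slope differences used quasi-likelihood tests. Effects on single days used likelihood ratio tests on a fit in which each day had its own mean, and 1 library per genotype and day lends them no replicate of its own, so that the spread comes from the dispersion of the additive fit. P-values were adjusted by the Benjamini-Hochberg method across the 11005 genes. Poisson intervals cover counting error only.

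The members and lists were chosen with earlier results of these data known, and 1 gene of the lists is not reported here. Genes of the lists were named where they were DE between the genotypes or where their role is set beside a member. Other memory genes DE with day and some markers within a sum were also named. Nearest genes were named by the 2 smallest differences. The day pairs the libraries: after removal of genotype means, log2 levels of the libraries of a day correlated across genes (r = 0.64, 0.413 and 0.645 on days 7, 10 and 14). The self-test was run on simulated counts, with 100 changed genes for each size of change. A log2 change of 2 in WT on all days was recovered in 97 genes over 3 days and in 95 on day 7. For a log2 change of 1 these were 90 and 55 genes. A change in WT on day 7 alone was recovered by the test of day 7 in 0 genes at either size. Alternatives were other size factors and filters, the left-out genes kept, other edgeR tests, DESeq2, day as a block, a linear day term kept in the day-wise fit, and each library left out in turn.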

Additional observations from a re-analysis of the deposited data

How the results depend on the processing

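The count of members DE between the genotypes on day 10 was 1, and 3 with the replicate block of day (Ccr6, Hhex and Nt5e) and 2 with a linear day term kept (Ccr6 and Nt5e); the count with a different slope was 0, and 1 with the block (Plac8). Likelihood ratio tests added Ski over 3 days (3 members) and Plac8 for the trend (5 members). With libraries left out in turn the counts were 0 to 2 over 3 days (main 2), 0 on day 7, 1 on day 10, 1 to 2 on day 14 (main 2), 0 to 4 for the day trend (main 4) and 0 to 1 for the slope difference. The count over 3 days was 0 without the WT library of day 14, and the block changed no call of a member beyond Ski over 3 days, Hhex and Nt5e on day 10 and the slope of Plac8. The direction of Tle3, near 0, turned over 3 days to 0.0091 with DESeq2's size factors, 0.0037 with a minimum of 10 counts, 0.0074 with all genes with any count, 0.0097 with DESeq2, 0.0013 with the block, and -0.17 to 0.13 with a library left out. On day 7 it turned to 0.0029 with either DESeq2 setting and 0.011 with all genes. Plac8 on day 14 was 0.026 with the linear term kept. With a library left out the Ski trend ran from -0.063 to 0.0086, and slope differences from -0.32 to 0.02 (Ccr6), -0.35 to 0.028 (Cd38), -0.27 to 0.18 (Hhex), -0.13 to 0.64 (Plac8), -0.044 to 0.15 (Tle3) and -0.014 to 0.13 (Nt5e) per day. In all 451 of the values for single members under alternatives kept direction and side of the threshold, 22 turned, 16 lost and 8 gained a call. The cause was not tested. The number of DE genes over 3 days was 651, and 136 without the WT library of day 14, 2093 without the Il21r-/- library of day 10, 1193 with likelihood ratio tests, 2519 with the block and 991 with all genes. On day 7 it was 118 and 303 with the block, on day 10 341, 822 with the block and 722 with the linear term, on day 14 361 and 1055 with the block, and for the trend 488, 870 with DESeq2 and 1186 with likelihood ratio tests. No quasi-likelihood test of single days, block for the linear trend, or loss of a library on its own day could be fitted. Zeb2 and Ski had 11 to 92 counts per library. Ccr6 and Cd38 fell to 38 and 49 counts in the WT library of day 14.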
